A study of Mus with 6 samples.

Results

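The cluster described here is made up of both arms of miR-199a and miR-214, 4 mature miRNAs (mmu-miR-199a-3p, mmu-miR-199a-5p, mmu-miR-214-3p and mmu-miR-214-5p, written below without the species prefix) among the 929 known mature miRNAs of the mouse that all 6 count tables list. They were chosen by name after earlier results on these libraries were known, among them the level of miR-199a-3p in the libraries numbered 3. Small RNA was sequenced from adipocytes of wild-type C57BL/6 mice, in 3 libraries after chronic intermittent hypoxia (CIH), the repeated drops in oxygen that mimic sleep apnoea, and 3 control libraries. The labels give no age, no length or depth of exposure, no fat depot and no word on whether the cells came from animals or culture, and all 6 libraries share genotype and strain. All 4 members were counted in every library and all 4 entered the tests, which covered 456 miRNAs in the 6 libraries and 459 in the libraries numbered 1 and 2.

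miRNAs are cut from a hairpin precursor that yields a 5′ arm (5p) and a 3′ arm (3p), and a loaded arm represses mRNAs through its seed. In the mouse, miR-199a-2 and miR-214 are made from the long noncoding RNA Dnm3os, which runs antisense within the dynamin 3 gene and is known to be switched on by the mesenchymal factor Twist1. The cluster is best known in mesenchymal and fibroblast cells, where it has been linked to skeletal development and fibrosis, and adipocytes descend from the same mesenchymal precursors.

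In the GRCm38.p6 annotation of RefSeq, Mir199a-2 lies on chromosome 1 from 162217814 to 162217923 and Mir214 on chromosome 1 from 162223368 to 162223477, with 5444 bases between them. Both fall inside Dnm3os (chromosome 1, 162217623 to 162225550), which itself lies within the span of Dnm3. A further copy, Mir199a-1, lies on chromosome 9 from 21496495 to 21496564 within the span of Dnm2. The paralogue Mir199b lies on chromosome 2 from 32318460 to 32318569 within the span of Dnm1. The counts of the miR-199a arms therefore pool at least 2 loci. The mature 3p arms of miR-199a and miR-199b are known to be identical, so the row named miR-199a-3p can hold reads of all 3 miR-199 loci, whereas miR-199b-5p has its own row.

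The 6 libraries held 6291101 to 11264151 counts. The pair numbered 3 stood apart: its tables list 1186 names, against 1053 in the other 4. Values are therefore given for the libraries numbered 1 and 2 and for the pair numbered 3 separately, and that pair has 1 library a group and no spread of its own. Levels are in CPM, counts scaled to a table total of 1000000. The floor of 3 counts lies at 0.266 to 0.477 CPM in these libraries. The labelled cell type has no single defining miRNA. A list of 7 adipocyte-linked miRNAs summed to 101760, 96496 and 281842 CPM in CIH libraries 1, 2 and 3 and to 161533, 148490 and 583628 CPM in control libraries 1, 2 and 3. The 4 leukocyte miRNAs summed to 0.266 to 3.27 CPM in CIH and 0.363 to 4.29 CPM in control, with miR-142a-3p, miR-142a-5p and miR-223-3p at 0 in at least 1 library.

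The cluster was far more abundant in CIH library 3 than in any other library. Its 4 members together took 1.10%, 1.09% and 6.68% of CIH libraries 1, 2 and 3 and 1.60%, 1.32% and 0.616% of control libraries 1, 2 and 3. CIH libraries 1 and 2 thus lay below control libraries 1 and 2, while in the pair numbered 3 the order was the opposite and the gap much wider.

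miR-199a-3p, an arm reported to target mTOR and the receptor Met, was the most abundant member in every library. It stood at 8167, 6996 and 42469 CPM in CIH libraries 1, 2 and 3 and at 10349, 7974 and 3220 CPM in control libraries 1, 2 and 3. It ranked between position 6 (CIH library 3) and position 20 (control library 3) among the shared known miRNAs. Its level in CIH library 3 was 4.10 times the highest of the other 5 libraries, control library 3 was the lowest of the 6, and CIH library 1 lay between the controls numbered 1 and 2.

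miR-199a-5p, the other arm of the same hairpins, has been reported to target HIF-1 alpha in rat cardiac myocytes and caveolin-1 in fibroblasts. It stood at 2040, 3278 and 20225 CPM in CIH libraries 1, 2 and 3 and at 4771, 4331 and 2731 CPM in control libraries 1, 2 and 3. CIH library 3 was again the highest, at 4.24 times the next library. Here the lowest library was CIH library 1 and not control library 3. CIH libraries 1 and 2 both lay below control libraries 1 and 2, as for 32% of the 459 miRNAs tested there, while for 17.4% both lay above.

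miR-214-3p, the main arm of miR-214 and a reported repressor of Ezh2, stood at 544, 373 and 2759 CPM in CIH libraries 1, 2 and 3. In control libraries 1, 2 and 3 it stood at 589, 585 and 126 CPM. miR-214-5p, the arm usually treated as the passenger, stood at 287, 237 and 1369 CPM in CIH libraries 1, 2 and 3 and at 328, 339 and 80.5 CPM in control libraries 1, 2 and 3. Both arms had their highest value in CIH library 3 and their lowest in control library 3. In both, the libraries numbered 1 and 2 did not overlap between the groups, with CIH below control. Such a gap in CPM, with CIH lower, was found for 32% of the 459 miRNAs tested in those libraries, and the reverse for 17.4%. CIH library 3 was the highest of the 6 libraries for 32% of the 456 miRNAs, and it was the highest with control library 3 the lowest for 17.3%.

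The paralogue arm miR-199b-5p, processed from a locus on another chromosome, was measured beside them. It stood at 129, 228 and 1691 CPM in CIH libraries 1, 2 and 3 and at 320, 234 and 343 CPM in control libraries 1, 2 and 3. It shared the high value of CIH library 3, at 4.93 times the next library, but control library 3 was its second highest library and not its lowest.

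**Figure D1:**
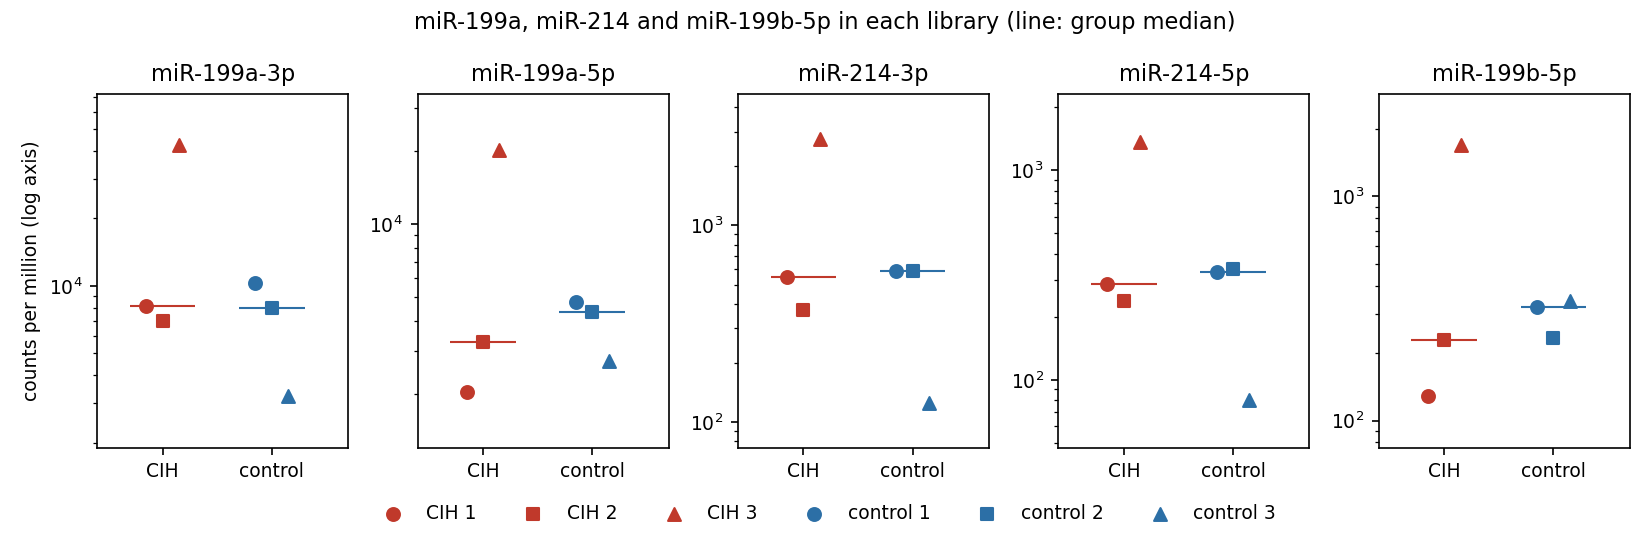
Levels in CPM of the 4 members and of miR-199b-5p in each library, on a log axis, with CIH left of control, 1 marker shape per library number and a line at each group's median. CIH library 3 lies at 4.04 to 4.93 times the next highest library in all 5 panels, and control library 3 is the lowest point for miR-199a-3p, miR-214-3p and miR-214-5p but not for the 5p arms of miR-199a and miR-199b.

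Within the libraries numbered 1 and 2 all 4 members had lower CIH means than control means, and for none did the difference pass the test. The members' values over all 6 libraries, which include these, were known at the choice. miR-199a-5p differed most, averaging 2659 ± 875 CPM over the CIH libraries and 4551 ± 311 CPM over the controls (n = 2 each, SD), with a log2 difference of -0.59 (SE 0.28, 95% interval -1.20 to 0.027, edgeR quasi-likelihood adjusted p = 0.246). For miR-199a-3p the log2 difference was -0.13, with a 95% interval of -0.54 to 0.28, for means of 7582 ± 828 CPM over the CIH libraries and 9162 ± 1679 CPM over the controls (n = 2 each, SD, edgeR adjusted p = 0.760). The edgeR differences here and below use TMM scaling, which allows for the makeup of each library, and the CPM means do not. With library totals as the only scaling they were -0.78 for miR-199a-5p and -0.27 for miR-199a-3p. The 2 arms of miR-214 differed alike, miR-214-3p by -0.23 (95% interval -0.66 to 0.20, edgeR adjusted p = 0.579) and miR-214-5p by -0.21 (95% interval -0.66 to 0.24, edgeR adjusted p = 0.629). All 4 log2 differences were negative, as for 52.3% of all 459 miRNAs. The intervals end short of 2-fold higher for all 4 members and short of 2-fold lower for all but miR-199a-5p.

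None of the 4 members was called in that comparison, in which 9.37% of the 459 miRNAs were, 19 (4.14%) higher and 24 (5.23%) lower in CIH (7 higher and 27 lower with library totals as the only scaling). In 3 of the 4 members, all but miR-199a-3p, the CPM ranges lay apart with CIH lower, which was also the case for 32% of all 459 miRNAs. Ranges apart with CIH higher were found for 17.4%, so CPM by library totals leaned towards lower values in CIH. The call on miR-199a-5p depended on how the libraries were handled. Deviations from the group means correlated at only 0.051 between same-number libraries here, so a block by replicate number had little basis in this comparison. With the replicate number as a block its log2 difference was -0.67 (SE 0.22, edgeR adjusted p = 0.0244), without CIH library 2 it was -1.13 (edgeR adjusted p = 4.45e-05) and without CIH library 1 it was -0.19 (edgeR adjusted p = 0.638), the range over its 14 alternatives being 4.45e-05 to 0.638.

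In the pair numbered 3 the difference ran the other way for all 4 members. A negative value in the libraries numbered 1 and 2 with a level at least 2-fold higher in CIH in this pair was found for 22.4% of 447 miRNAs (100 of them). The first value has TMM scaling and the second is by library totals, so this share mixes 2 scalings. miR-214-3p was 21.9 times higher in CIH library 3 than in control library 3 (95% counting interval 20.6 to 23.4), from 31075 against 1039 counts. miR-214-5p was 17.0 times higher (15.7 to 18.4), miR-199a-3p 13.2 times (13.0 to 13.4) and miR-199a-5p 7.41 times (7.30 to 7.51), and these intervals cover counting error only. With TMM scaling, which allows for the makeup of each library, the ratios were 12.6, 9.74, 7.55 and 4.24 in the same order, so a good part of each ratio depends on the scaling. These are values of 1 library a group, known when the cluster was chosen, and they carry no test.

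A gap of this size was uncommon in that pair but not confined to the cluster. Of the 456 miRNAs, 41.7% were at least 2-fold and 8.33% at least 7-fold higher in CIH library 3 (CPM with 0.5 added). These shares are by library totals and were not retaken with TMM scaling, which lowers every log2 ratio of this pair. miR-214-3p, miR-214-5p, miR-199a-3p and miR-199a-5p took positions 7, 10, 11 and 36 of 456 by this ratio, and miR-199b-5p position 56. CIH library 3 exceeded every other library by at least 4-fold for 2.85% of the miRNAs (13 of 456), among them all 4 members and miR-199b-5p. The other 8 were let-7c-1-3p, miR-146a-5p, miR-181a-1-3p, miR-181b-1-3p, miR-34a-5p, miR-351-5p, miR-384-3p and miR-503-3p, named after their values were seen.

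Over all 6 libraries the 2 sets pulled in opposite directions, and the spread was wide. miR-199a-3p averaged 19211 ± 20151 CPM over the CIH libraries and 7181 ± 3630 CPM over the controls (n = 3 each, SD), and its log2 difference was 1.34 (SE 0.75). The log2 differences of miR-199a-5p, miR-214-3p and miR-214-5p were 0.94 (SE 0.83), 1.46 (SE 0.81) and 1.30 (SE 0.75), and all 4 members had overlapping ranges. edgeR's quasi-likelihood test called 0% of the 456 miRNAs and left 23 (5.04%) with an unadjusted p under 0.05. DESeq2 and limma-voom called 0 too. Without CIH library 3 the log2 differences were 0.069 for miR-199a-3p, -0.63 for miR-199a-5p, 0.11 for miR-214-3p and 0.10 for miR-214-5p, so most of the size of the positive values rested on that library.

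**Figure D2:**
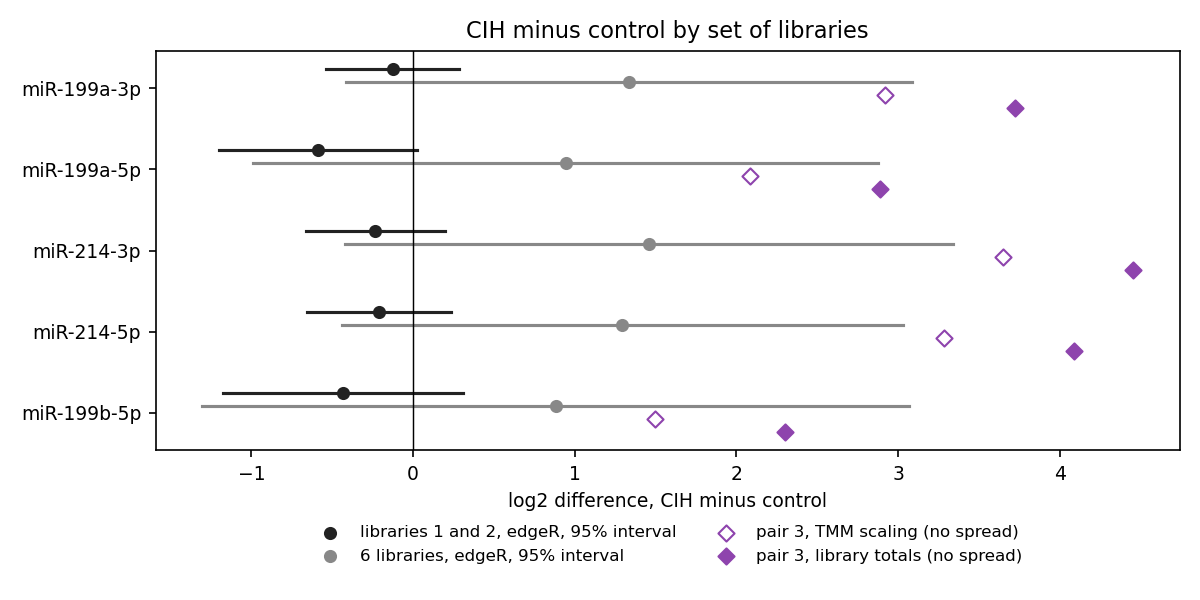
The log2 difference between CIH and control for the 4 members and miR-199b-5p, from the libraries numbered 1 and 2 and from all 6 (points with 95% intervals from edgeR) and from the pair numbered 3 (diamonds, with no spread). The values of the libraries numbered 1 and 2 lie between -0.59 and -0.13, and those of the pair numbered 3 lie between 2.30 and 4.45 by library totals.

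The balance of the arms differed between the 2 miRNAs. For miR-214 the 3p arm exceeded the 5p arm by 1.89, 1.57 and 2.01 times in CIH libraries 1, 2 and 3 and by 1.8, 1.73 and 1.56 times in control libraries 1, 2 and 3. This ratio spanned 0.37 on the log2 scale over the 6 libraries, although the level of miR-214-3p itself spanned a 21.9-fold range. The mean log2 ratio was 0.86 ± 0.19 in CIH and 0.76 ± 0.10 in control (SD, n = 3 each), a difference of 0.10 (exact two-sided permutation p = 0.4, or 0.533 when adjusted over 4 measures).

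For miR-199a the 3p arm exceeded the 5p arm by 4.0, 2.13 and 2.10 times in CIH libraries 1, 2 and 3, against 2.17, 1.84 and 1.18 times in control libraries 1, 2 and 3. The log2 ratio spanned 1.76, with CIH library 1 at the top, control library 3 at the bottom and the other 4 libraries between 0.88 and 1.12. In each numbered pair the CIH library had the higher ratio, but the groups overlapped. The mean log2 ratio was 1.39 ± 0.53 in CIH and 0.75 ± 0.46 in control (SD, n = 3 each), a difference of 0.64 (exact two-sided permutation p = 0.3, or 0.533 when adjusted over 4 measures). With 3 libraries against 3 this test cannot go below 0.1. The difference was 0.34 without CIH library 1 and 0.39 without control library 3, so those 2 libraries supplied much of it.

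To set these spans in scale, the same ratio was taken for the 88 hairpins with both arms tested and at least 10 counts of each arm in every library, a measure added after the data were seen. The span over the 6 libraries had a median of 1.99 on the log2 scale. miR-214 had the narrowest span but 3 of the 88, at 0.37, while miR-199a, at position 39 from the narrowest, lay near the middle. In CIH library 1 the 3p to 5p ratio of miR-199a lay 0.93 above its own mean over the 6 libraries, position 11 from the highest of 88, where the median hairpin deviated by 0.12 and the middle 50% ran from -0.30 to 0.57. In control library 3 miR-199a deviated by -0.83, where the median hairpin deviated by 0.052 and the middle 50% ran from -0.72 to 1.01.

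**Figure D3:**
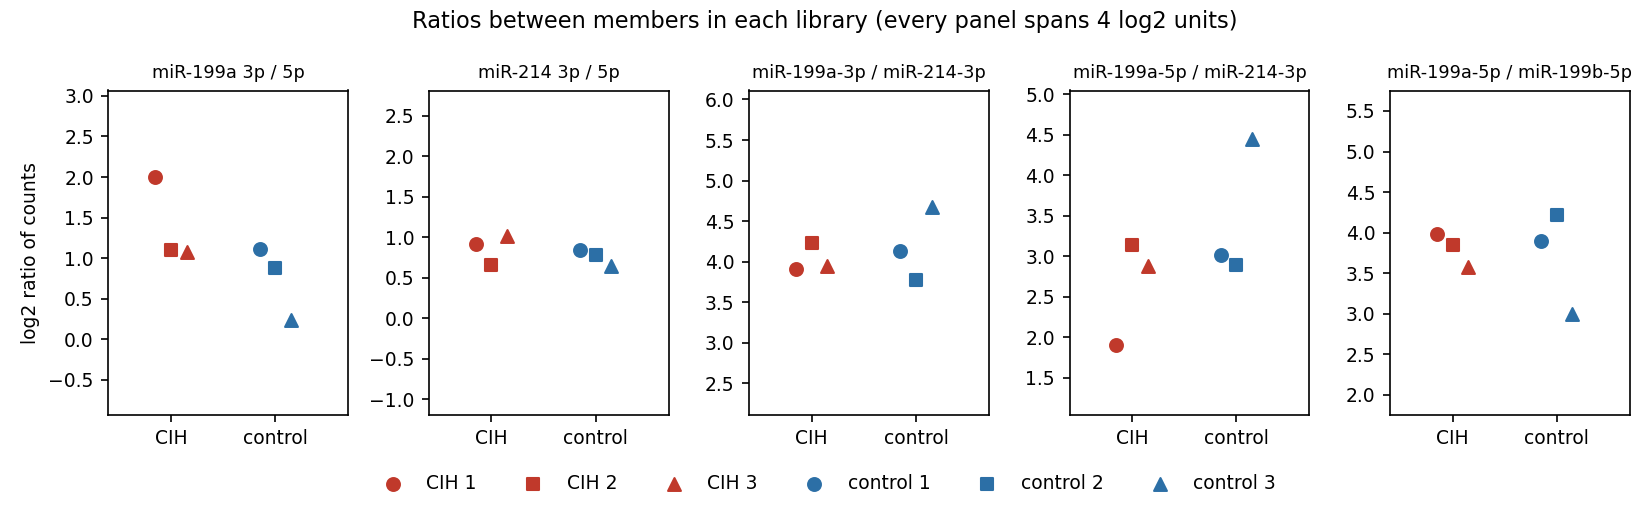
Log2 ratios of counts between members in each library, with CIH left of control, the same marker shapes for library numbers and a span of 4 log2 units in every panel. The points of miR-214 3p over 5p lie within 0.37 of each other, while those with miR-199a-5p over miR-214-3p span 2.53, from CIH library 1 at the bottom to control library 3 at the top.

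Likeness among the members followed the hairpin for miR-214 but not for miR-199a. The likeness of 2 profiles was measured as the root mean square distance between log2(CPM + 1) values over the 6 libraries, each centred on its own mean. miR-214-3p and miR-214-5p were 0.13 apart. miR-199a-3p was 0.22 from miR-214-5p and 0.29 from miR-214-3p, but 0.52 from miR-199a-5p, the other arm of its own hairpin. miR-199a-5p was nearer to miR-199b-5p (0.39) than to any member, and 0.74 from miR-214-3p. For scale, the profiles of the 4 members deviate from their own means by 1.06 to 1.31.

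The same split shows in the ratios across the cluster. miR-199a-5p stood at 3.75, 8.79 and 7.33 times miR-214-3p in CIH libraries 1, 2 and 3 and at 8.10, 7.41 and 21.7 times in control libraries 1, 2 and 3. CIH library 1 was low and control library 3 high, with the other 4 libraries close together. The log2 difference between the groups was -0.81 (exact two-sided permutation p = 0.4, or 0.533 when adjusted over 4 measures). miR-199a-3p over miR-214-3p varied less, from 13.6 to 25.6 times, again with control library 3 at the top. miR-199a-5p over miR-199b-5p ran at 15.9, 14.4 and 12 times in CIH libraries 1, 2 and 3 and at 14.9, 18.5 and 7.96 times in control libraries 1, 2 and 3, so the low value of miR-199a-5p in CIH library 1 was matched by the 5p arm of its paralogue.

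Outside the cluster and miR-199b, the 5 miRNAs nearest to the mean profile of miR-199a-3p, miR-199a-5p and miR-214-3p were miR-503-3p (distance 0.18), miR-351-5p (0.21), miR-181a-1-3p (0.26), miR-384-3p (0.31) and miR-325-3p (0.32). The median distance over the 451 other tested miRNAs was 1.16. miR-503-3p and miR-351-5p are products of the X-linked cluster that also holds miR-322, known to restrain the cell cycle. miR-351-5p stood at 127, 89.1 and 795 CPM in CIH libraries 1, 2 and 3 and at 187, 141 and 71.8 CPM in control libraries 1, 2 and 3. miR-384-3p and miR-325-3p were at 22.2 CPM or less in every library, so their profiles rest on few reads, and miR-384-3p had 0 counts in control library 3, below its floor of 0.363 CPM. The nearest to single members were miR-351-5p and miR-181a-1-3p for miR-199a-3p, miR-503-3p and let-7c-1-3p for miR-199a-5p, and miR-384-3p and miR-325-5p for both arms of miR-214, at distances of 0.20 to 0.39. In each of the 10 profiles plotted, the largest deviation was that of CIH library 3, which for the 5 nearest follows from how they were picked.

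**Figure D4:**
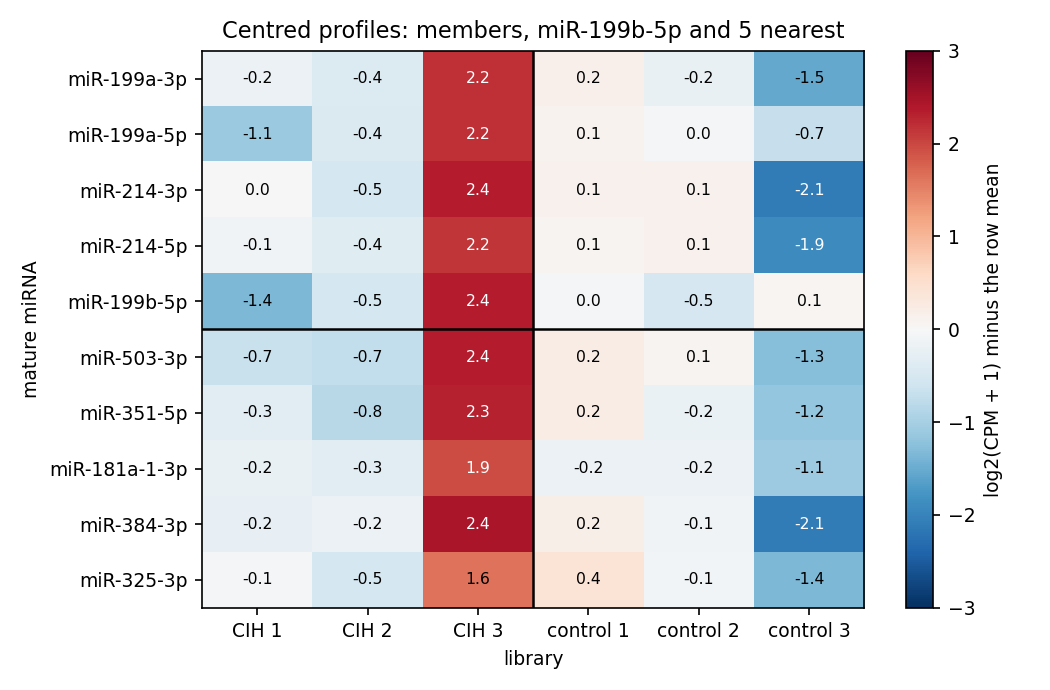
Log2(CPM + 1) minus the row mean for the 4 members, miR-199b-5p and the 5 miRNAs nearest to the cluster's mean profile, in the 3 CIH libraries (left) and the 3 control libraries (right). All rows are highest in CIH library 3, and control library 3 is lowest in all rows but those of miR-199a-5p and miR-199b-5p, where CIH library 1 is. The 5 nearest were picked for their likeness to the members, so their shared shape follows from that choice.

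A list of 18 other miRNAs linked to mesenchymal cells, chosen with earlier results known, was set beside the cluster, and 17 were tested. Within the libraries numbered 1 and 2, 0 of 17 were called in either direction (9.37% of all 459 miRNAs were), 12 had negative and 5 positive log2 differences, and the median was -0.12, beside -0.034 over all 459 miRNAs. In the pair numbered 3, 11 of the 17 were at least 2-fold higher in CIH library 3, which was the case for 41.7% of all miRNAs, and the median log2 ratio was 1.28, beside 0.74 over all 456. These values are by library totals. TMM scaling lowers every log2 ratio of this pair, that of the summed cluster from 3.44 to 2.64. Fewer of the list and of all miRNAs may then reach 2-fold, which was not counted. miR-152-3p, a member of the miR-148 family, had the smallest p, at 1986 and 1825 CPM in CIH libraries 1 and 2 and 3244 and 3149 CPM in control libraries 1 and 2 (log2 difference -0.60, SE 0.20, edgeR adjusted p = 0.0618). miR-455-5p, whose host is a collagen gene, was at 0.44 (SE 0.23, edgeR adjusted p = 0.287), and miR-199b-5p at -0.43 (SE 0.33, edgeR adjusted p = 0.518).

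The mesenchymal miRNAs ran from lower to far higher in CIH in the pair numbered 3. miR-125b-5p, a widely expressed regulator of proliferation, stood at 3887 CPM in CIH library 3 and 387 CPM in control library 3, 10.1 times higher. This ratio is more than that of miR-199a-5p and less than those of the other 3 members. Its level in CIH library 3 was only 0.986 times the highest of the other 5 libraries, whereas each member was at least 4.04 times. The ratio of miR-125b-5p thus went with a low control library 3. None of the other 16 was more than 4.93 times higher, and miR-127-3p, from an imprinted cluster, went far the other way, CIH library 3 standing at 0.0726 times control library 3. miR-143-3p, an abundant miRNA of smooth muscle and fat, stood at 55147 CPM in CIH library 3 and 57127 CPM in control library 3. miR-10b-5p stood at 56547 CPM in CIH library 3 and 82007 CPM in control library 3. These 4 were picked after their values were seen. The summed level of the 17 mesenchymal miRNAs was 199711, 167045 and 174232 CPM in CIH libraries 1, 2 and 3 and 201431, 219412 and 157675 CPM in control libraries 1, 2 and 3, none of the 17 being at 0. In the pair numbered 3 this sum was mostly made up of miR-143-3p and miR-10b-5p, and the cluster's own sum differed there by 10.9 times. The other 15, a split made after the values were seen, summed to 62538 CPM in CIH library 3 and 18541 CPM in control library 3. That is 3.37 times higher in CIH, with miR-99a-5p supplying 40268 and 10627 CPM of these sums. The same 15 summed to 55496 and 43382 CPM in CIH libraries 1 and 2 and to 55828 and 48300 CPM in control libraries 1 and 2. Control library 3 thus lay far below every other library, while CIH library 3 lay only a little above the next. miR-22-3p, 1 of the 15, stood at 20927 and 17762 CPM in CIH libraries 1 and 2. In control libraries 1 and 2 it stood at 21286 and 16672 CPM. In the pair numbered 3 it was at only 801 CPM in CIH and 579 CPM in control. It thus narrowed the lead of CIH library 3 over the libraries numbered 1 and 2 in these sums. In bulk RNA, more cells of a type and more of a miRNA per cell cannot be told apart.

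**Figure D5:**
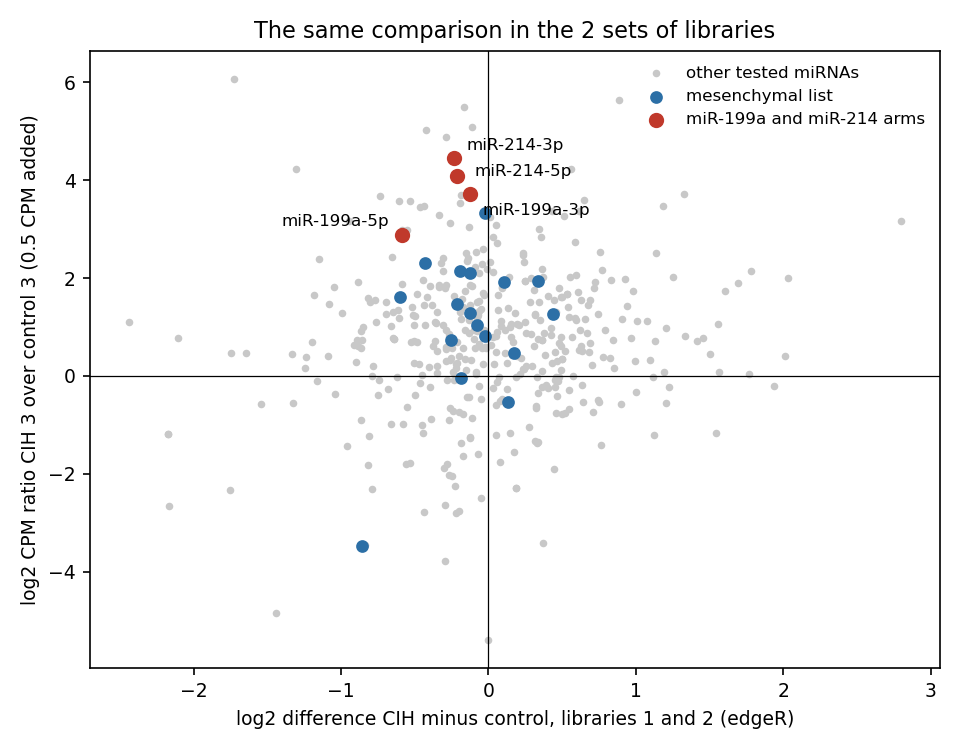
The log2 difference between CIH and control in the libraries numbered 1 and 2 (x axis, edgeR) against the log2 CPM ratio of CIH library 3 over control library 3 (y axis) for 447 miRNAs, with the 17 mesenchymal miRNAs and the 4 members marked. The x axis has TMM scaling and the y axis is by library totals. The members sit left of 0 on the x axis and between 2.89 and 4.45 on the y axis, above all but 1 of the mesenchymal miRNAs.

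Of 18 miRNAs reported in fibrosis, also listed with earlier results known, all 18 were tested, and 1 was called within the libraries numbered 1 and 2, where 9.37% of all 459 miRNAs were. This was miR-155-5p, an inflammatory miRNA, which rose to 308 and 207 CPM in CIH libraries 1 and 2, against 155 and 176 CPM in control libraries 1 and 2 (log2 difference 0.76, SE 0.23, edgeR adjusted p = 0.0340). miR-23a-3p was at 0.55 (SE 0.21, edgeR adjusted p = 0.0932) and miR-30a-5p at -0.79 (SE 0.27, edgeR adjusted p = 0.0939). The median log2 difference of the list was -0.093, beside -0.034 over all 459. In the pair numbered 3, 13 of the 18 were at least 2-fold higher in CIH library 3 and 2 at least 2-fold lower, with a median log2 ratio of 1.56. Over all 456 miRNAs 41.7% were at least 2-fold higher, and the median was 0.74. These values too are by library totals and would be lower with TMM scaling.

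Summed over each list, markers of other cell types differed by less than the cluster's sum in the pair numbered 3. The 7 adipocyte-linked miRNAs summed to 281842 CPM in CIH library 3 and 583628 CPM in control library 3. Singly they differed, so the sum does not stand for each of them. By library totals the log2 ratio was -2.78 for miR-378a-3p, -2.32 for miR-30a-5p, -0.99 for miR-148a-3p and -0.56 for miR-193b-3p. It was -0.23 for miR-103-3p, -0.076 for miR-107-3p and 1.73 for miR-26a-5p. The part of all these markers in the cluster's values was not tested. The 2 endothelial miRNAs summed to 104, 73.1 and 100.1 CPM in CIH libraries 1, 2 and 3 and to 137, 92.9 and 33.8 CPM in control libraries 1, 2 and 3. The 7 epithelial miRNAs summed to 18.6 to 170 CPM in CIH and 76.3 to 409 CPM in control, with miR-141-3p and miR-429-3p at 0 in at least 1 library. The 3 muscle miRNAs in the tables summed to 11.6 to 38.7 CPM in CIH and 12.6 to 111 CPM in control. Single miRNAs could move apart from such sums. In the pair numbered 3 the log2 ratio of miR-205-5p, linked to epithelium, was -4.85, larger in size than that of any member. Those of miR-200a-3p, miR-200b-3p and miR-200c-3p, also linked to epithelium, went the other way, at 1.83, 1.61 and 1.64.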

How the data were processed

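The deposited tables hold read counts, whole numbers for each mature miRNA, 1 table for each of 3 CIH and 3 control libraries, without normalization. Headers of 3 tables say FPKM, but the values are whole numbers with differing totals and were taken as counts. Per the submitters' processing notes, featureCounts 1.5.0-p3, DESeq 1.8.3 and GRCm38 were used, with no role given. How reads were trimmed, aligned and assigned when several miRNAs match is not given in the sources used here. Tests used the 929 known names that all tables share, with at least 99.97% of the counts in each table.

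Counts were tested with edgeR 4.0.16 (robust quasi-likelihood F test, TMM, filterByExpr, Benjamini-Hochberg over all tested miRNAs, threshold 0.05) in R 4.3.3, after the fits were checked on simulated counts. TMM factors were 1.11 for CIH library 3 and 0.64 for control library 3. Ratios were compared by exact permutation over libraries (two-sided). Alternatives used DESeq2 1.42.0, limma 3.58.1, other scalings, filters and left-out libraries. Members, lists and the rule for named miRNAs were chosen with earlier results of these data known. The rule named the 4 members, miR-199b, the 3 smallest p of each list and any list member called, the 5 nearest profiles and 2 nearest per member.

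Deviations from the group means correlated at 0.31, 0.34 and 0.41 between libraries of equal number, and equal numbers were therefore taken as pairs where a block was fitted. CIH library 2 and control library 1 correlated at 0.40 too, and without the pair numbered 3 the same-number value was only 0.051. Replicates differed beyond counting noise (chi-square of at least 159 for each degree of freedom). The labels do not say whether replicates are separate animals, cultures or preparations, and the p-values reflect whatever spread these libraries have, possibly technical. No molecular identifiers are named for these reads, so intervals and floors cover counting error only.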

Additional observations from a re-analysis of the deposited data

How the results depend on the processing

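Over all 6 libraries 0 miRNAs were called under each of 17 alternatives, which says little about stability, since the spread of these libraries leaves few changes that the test could call. The log2 differences of the members stayed positive there, except that of miR-199a-5p, which ran from -0.63 to 1.51 when 1 library was left out at a time, with the negative value coming without CIH library 3. Within the libraries numbered 1 and 2 the count of 43 calls became 65 at a threshold of 0.1 and ran from 6 to 91 when 1 library was left out: 23 without CIH library 1, 91 without CIH library 2, 14 without control library 1 and 6 without control library 2. These fits take a lone library to vary as much as those of the other group. The log2 differences of the 4 members stayed negative in all 14 alternatives. miR-199a-5p was called in 3 of them: the blocked fit (-0.67), the fit with no filter on low counts (-0.62, edgeR adjusted p = 0.0464) and that without CIH library 2. The replicate block changed no other call on a member. It gave 48 calls in the libraries numbered 1 and 2 and 0 in all 6. With library totals as the only scaling the median log2 difference of all miRNAs moved from -0.034 to -0.17 in the libraries numbered 1 and 2 and from 0.042 to 0.15 in all 6.

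The arm ratio of miR-214 differed by -0.029 in the libraries numbered 1 and 2 alone, on the opposite side of 0 from its value in all 6. Sign flips within pairs gave p = 0.25 for the arm ratio of miR-199a, 0.75 for that of miR-214 and 0.5 for miR-199a-5p over miR-214-3p (exact test, 0.25 being the smallest value 3 pairs allow). The summed share of the cluster was 1.78 percentage points higher in CIH over 6 libraries, -0.367 points in the libraries numbered 1 and 2 alone, and -0.085 to 2.71 points when 1 library was left out at a time. The log2 ratio of the summed cluster in the pair numbered 3 was 3.44 by library totals and 2.64 with TMM scaling. Alternatives that join or add miR-199b-3p were not run, since no separate value for that name was used here, and no reference sequences were used to join other identical names.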
